A study of Drosophila melanogaster with 2 samples.

Results

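Proteasome subunit genes of Drosophila melanogaster were examined in peak lists from chromatin immunoprecipitation of Pumilio (Pum), an RNA-binding protein known as a translational repressor of maternal mRNAs. The genes were chosen by symbol as protein-coding genes whose names start with Rpn or Rpt and a digit, or with Prosalpha or Prosbeta. This gave 48 of 13968 protein-coding genes. By suffix, 32 are the canonical subunit genes and 16 are duplicate copies, whose symbols add R or T to the subunit name. Chromatin came from whole embryos of mixed sex, collected from 0 to 24 h of development, of the strain Pum-MiMIC-GFP. In this line an eGFP exon inserted in an intron of pum makes a Pum-GFP fusion, and anti-GFP antibody was used for precipitation. The single group had 2 biological replicates, numbered 2 and 3 in the labels. Both carry the same insertion, so there is no second line, and all embryonic tissues are mixed. No control precipitation was analysed here, so these values have no background from embryos without the fusion beside them.

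The proteasome is the protease that breaks down ubiquitin-tagged proteins. Its core particle is a barrel of stacked alpha and beta rings with the protease sites inside, and its regulatory particle binds, unfolds and feeds in substrates. The regulatory particle consists of a lid of non-ATPase (Rpn) subunits and a base, which holds a ring of AAA ATPases (Rpt) with further Rpn subunits. Each complex needs its subunits together, and the genes encoding them are used in nearly all cells, whereas copies with the suffix T are testis-specific in the fly.

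Sequences at these promoters are shown first, because the strongest summit and the motifs found near summits recur in the results. All are from the Release 6 genome (dm6), 5′ to 3′ on the strand of the gene. The first is the stretch around the Rpn5 summit, chr3R:5789242-5789328 on the plus strand. It holds none of the 6 motifs searched and is therefore printed without capitals. The next 4 hold the DRE, TATCGATA, the site of the promoter factor Dref, which is in capitals. They are from Rpt5 (chr3R:23752819-23752848, plus strand), Rpn12 (chr3L:16582801-16582830, plus strand), Rpn3 (chr2L:19051582-19051611, plus strand) and Prosbeta6 (chr3L:16610444-16610473, minus strand). Rpt5, Rpn12 and Rpn3 have promoter peaks, while Prosbeta6 has none in any list and shows that the motif also occurs without a promoter summit. The Rpn1 (chr3L:19915040-19915068, plus strand) and Rpn7 (chr3R:22462018-22462046, minus strand) stretches carry the Ohler 1 core, GGTCACACT, a core promoter motif, in capitals. The last, from Rpn10 (chr3L:21536955-21536984, plus strand), has in capitals 2 adjoining matches to TGTANATA, the sequence that Pum recognises in RNA, written as DNA.
Rpn5: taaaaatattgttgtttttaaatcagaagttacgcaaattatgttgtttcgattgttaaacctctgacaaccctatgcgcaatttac
Rpt5: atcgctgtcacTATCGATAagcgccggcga
Rpn12: ttgttaaaataTATCGATAttaaagcacaa
Rpn3: tgttatcggagTATCGATAtcgaaaaggct
Prosbeta6: gtatgtataccTATCGATAacgtttaagca
Rpn1: ttcgccgcgcGGTCACACTgcaaaaagcg
Rpn7: ataattttggGGTCACACTggtagtacat
Rpn10: atgtaaaagaaTGTACATATGTAAATAtaa

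Promoter peaks of canonical subunit genes were common but mostly of moderate strength. Here a promoter peak is a summit within 500 bp of any annotated start of the gene. In the authors' optimal list 11 of the 32 canonical genes had one (34.4%), and 0 of the 16 duplicate copies did. Over all protein-coding genes the share was 18.6% (2601 of 13968). For the 48 genes together it was 22.9% (11 of 48), which is near that background. The canonical share depended on how summits were assigned: with each summit given only to the gene with the nearest start, 7 of 32 canonical genes had one (21.9%) against 20.3% of all protein-coding genes, a share near that background. The optimal list held 3816 summits once any summit less than 250 bp from a stronger neighbour was removed, and its 3970 rows are the top of the authors' pooled list by signal. Of the 11 genes, 8 encode regulatory particle subunits (8 of 18, or 44.4%) and 3 encode core particle subunits (3 of 14, or 21.4%). The 11 signals had a median of 109.7, against 149.3 over the 2601 genes with an optimal promoter peak, and 3 of the 11 were above that value. Signal is a value given to each peak by the authors and serves here only to rank peaks within a list. Lists of 1 group give no comparison to test, and the members were chosen with earlier results of these data known, so counts stand beside the background without a p-value.

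Farther down the pooled list the difference between the canonical genes and the background widened. The whole pooled list, which holds 24209 summits after the same removal and runs from peaks to background regions, had a promoter summit at 28 of 32 canonical genes (87.5%), 0 of 16 duplicate copies and 48% of all protein-coding genes. Cut at 2 times the optimal number of summits, it had one at 21 of 32 (65.6%), 0 of 16 and 29.9%. Thus 10 canonical genes lay just beyond the optimal list. At the strong end no such difference was seen. Among the 1000 strongest pooled summits, 1 canonical gene of 32 (3.12%) had a promoter summit, against 5.89% of all protein-coding genes, and among the 2000 strongest the shares were 12.5% and 11.1%. The median pooled signal was 61.94 at the 28 canonical genes and 60.17 at all 6708 protein-coding genes with a pooled promoter summit. Some of the 28 summits were weak by the authors' q-value. Its −log10 was 0.057 at Prosbeta7, 0.09616 at Rpt4, 0.2273 at Prosbeta5 and 0.2574 at Rpn9. It was 0.4521 at Rpt6, 0.6655 at Prosbeta2 and 0.8509 at Prosalpha6. The background share of 48% also counts all rows of the list. The canonical genes therefore stood out in how many had a summit, such weak ones included, and their signals had nearly the same median.

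**Figure D1:**
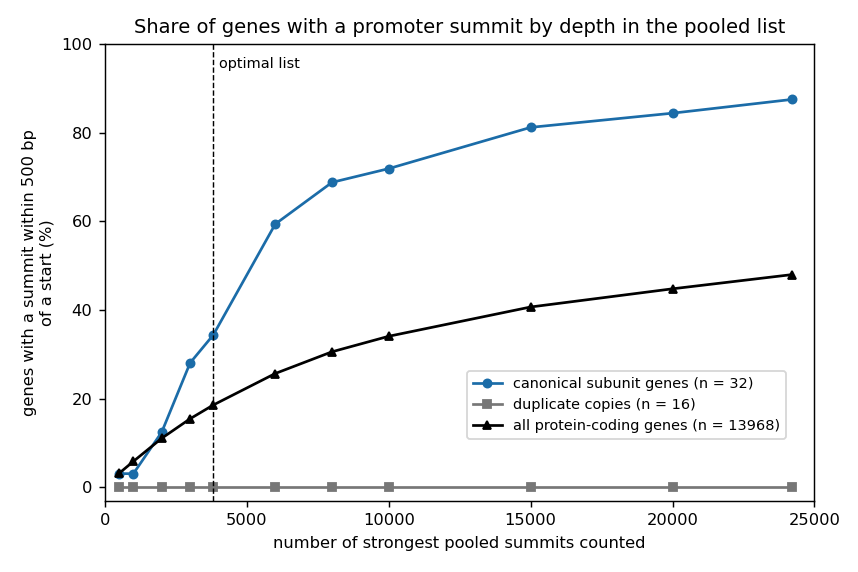
Share of genes with a summit within 500 bp of a start (y axis, percent) as more of the strongest pooled summits are counted (x axis), for the 32 canonical subunit genes, the 16 duplicate copies and all 13968 protein-coding genes. The canonical curve lies below the background at 1000 summits, reaches 34.4% at the optimal list (dashed line) and 87.5% at the end, while the duplicate copies stay at 0.

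The lid had promoter peaks at 4 of its 8 genes (50%), against 18.6% of all protein-coding genes. The pooled list had a promoter summit at all 8, against 48%. Rpn5 (FBgn0028690, 3R 5789493 to 5791569, plus strand), a PCI-domain subunit of the lid, had the strongest peak of any proteasome gene. Its signal was 395.3 for the pooled peak, 241.9 in replicate 2 and 149.9 in replicate 3, with ranks of 271, 263 and 356. It was the top-ranked proteasome gene in both replicates. The start of the divergent gene Hat1, which encodes a histone acetyltransferase, lies 109 bp upstream of the Rpn5 start. The summit, at 5789292, lay 201 bp upstream of Rpn5, past the Hat1 start by 92 bp on the Hat1 side. It was thus not between these starts, and the peak cannot be assigned to either gene. Among protein-coding genes with an optimal promoter peak, Rpn5 was at the 90.3 percentile of signal.

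Rpn3 (FBgn0261396, 2L 19051790 to 19053681, plus strand), another PCI-domain lid subunit, had a signal of 183.3 for the pooled peak, 101.2 in replicate 2 and 83.5 in replicate 3. Its summit at 19051845 was 55 bp downstream of the start, the only one of the 11 downstream of a start, and 233 bp from a start of l(2)37Bb. Rpn6 (FBgn0028689, 2R 14750166 to 14752910, minus strand), which bridges lid and core, had 139.9 for the pooled peak, 89.13 in replicate 2 and 51.51 in replicate 3. Its summit was 136 bp upstream of a start but nearer, at 114 bp, to a start of ave, a component of Ras signalling. Rpn12 (FBgn0028693, 3L 16583028 to 16584022, plus strand) had 87.44 in the pooled list. Here the replicates differed, with 20.42 at rank 12508 in replicate 2 and 67.02 at rank 1628 in replicate 3, and the replicate 2 summit lay 292 bp upstream against 70 bp in replicate 3. No other start was within 500 bp of the Rpn12 summit, at 16582928.

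The remaining lid genes were below the optimal list. Rpn8, the inactive partner of the deubiquitinase, had 73.71 for the pooled peak, 53.62 in replicate 2 and 25.28 in replicate 3, with the start of the kinase gene Slik nearer to the summit, at 53 bp. Rpn11, the metalloprotease that removes ubiquitin chains, had 57.45 for the pooled peak, 47.86 in replicate 2 and 20.86 in replicate 3. The strongest summits of the replicates lay 587 bp apart there and so were different sites. Replicate 3 held 2 summits within 500 bp of the Rpn11 start, and only the stronger was compared. Rpn8 and Rpn11 ranked among the strongest summits in replicate 2 and not in replicate 3. Rpn7 (49.93) and Rpn9 (32.19) had lower pooled signals.

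The non-ATPase subunits of the base had promoter peaks at 3 of 4 genes (75%), against 18.6% of all protein-coding genes. Rpn13 (FBgn0033886, 2R 13958545 to 13960404, minus strand), a ubiquitin receptor, had 204.6 for the pooled peak, 118.1 in replicate 2 and 80.7 in replicate 3. It ranked 1015, 1046 and 1160 in these lists, and its summits lay 62, 76 and 60 bp upstream, so position and rank were alike in both replicates. CtsL1, which encodes a lysosomal cathepsin, has a start 209 bp from that summit. Rpn2 (FBgn0028692, 3R 29153524 to 29157255, plus strand), the scaffold of the base, had 102.9 for the pooled peak, 58.24 in replicate 2 and 47.29 in replicate 3, at 114 bp upstream and 144 bp from the start of Slbp. Rpn10 (FBgn0015283, 3L 21537000 to 21538582, plus strand), a further ubiquitin receptor, had 102.2 in the pooled list. Its replicates were unlike, with 69.72 at rank 2193 in replicate 2 and 20.2 at rank 10238 in replicate 3, although the summits lay 33 bp upstream and 9 bp downstream of its starts. Rpn1, which binds ubiquitin and shuttle factors, was outside the optimal list with 55.21 for the pooled peak, 17.84 in replicate 2 and 31.97 in replicate 3.

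Of the 6 ATPase genes of the base, 1 had a promoter peak (16.7%), near the 18.6% of all protein-coding genes. Rpt5 (FBgn0028684, 3R 23752876 to 23754623, plus strand) had 110.8 for the pooled peak, 63.73 in replicate 2 and 42.29 in replicate 3. The summit at 23752850 lay between Rpt5, 26 bp away, and the divergent gene RanBP3, 16 bp away, and the DRE printed above was centred 16 bp from it. Rpt3 had 64.65 for the pooled peak, 25.97 in replicate 2 and 42.18 in replicate 3, and Rpt2 had 55.71, 15.25 and 48.69 in the same lists. For both, replicate 3 ranked the summit among its strongest and replicate 2 did not. Rpt2 ranked 23060 in replicate 2 and 2732 in replicate 3, a ratio of ranks of 8.44, which was the widest among the canonical genes. Rpt6 (36.69) and Rpt4 (26.88) were low in the pooled list, and Rpt1 had a promoter summit in replicate 3 only, with 16.66 at rank 14251.

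In the core particle, promoter peaks were at 2 of 7 alpha ring genes (28.6%) and 1 of 7 beta ring genes (14.3%). Over all protein-coding genes the share was 18.6%, so the beta ring was not above it. The alpha subunits form the outer rings that gate the barrel. Prosalpha5 (FBgn0016697, 2R 17412767 to 17413769, plus strand) had 98.9 for the pooled peak, 60.54 in replicate 2 and 42.53 in replicate 3, with no other start within 500 bp. Prosalpha7 (FBgn0023175, 2R 9846636 to 9847836, minus strand) had 86.96 for the pooled peak, 58.97 in replicate 2 and 28.81 in replicate 3, at 40, 41 and 46 bp upstream. Prosalpha3 was the first gene outside the optimal list, with 79.49, where the lowest optimal signal was 80.35 and Prosalpha7 was the lowest of the genes inside. It had 57.02 in replicate 2 and 24.42 in replicate 3. Prosalpha2 had 57.15 for the pooled peak, 33.41 in replicate 2 and 21.73 in replicate 3, with the replicate summits 263 bp apart. Prosalpha4 had 56.38 for the pooled peak, 47.4 in replicate 2 and 26.05 in replicate 3, with the microtubule-severing subunit gene kat80 starting 82 bp from its summit. The replicate summits of Prosalpha4 lay 446 bp apart. Prosalpha6 (44.35) was lower, and Prosalpha1 had no promoter summit in any list.

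Among beta subunits, Prosbeta1, Prosbeta2 and Prosbeta5 carry the protease activities. Prosbeta1 (FBgn0010590, 2R 16013805 to 16014787, minus strand), the caspase-like subunit, had the only optimal peak, with 109.7 for the pooled peak, 75.04 in replicate 2 and 35.6 in replicate 3. Its summit, 121 bp upstream, fell on the start of Rrp42, an exosome subunit gene, at 0 bp. Prosbeta3 had 59.22 for the pooled peak, 21.88 in replicate 2 and 33.85 in replicate 3. Prosbeta2, the trypsin-like subunit gene, had 40.96 in the pooled list, Prosbeta5, the chymotrypsin-like subunit gene, had 31.32, and Prosbeta7 had 25.23. At Prosbeta2 and Prosbeta5 the starts of mRpL39 and dgo were nearer to the summits. Prosbeta4 and Prosbeta6 had no promoter summit in any list. An optimal summit with a signal of 156.6 lay 1116 bp from the Prosbeta6 start, past the other end of the gene. The 3 canonical genes without a promoter summit in either replicate were therefore all core particle genes, and for Prosalpha1 the lack is uncertain, as given below.

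**Figure D2:**
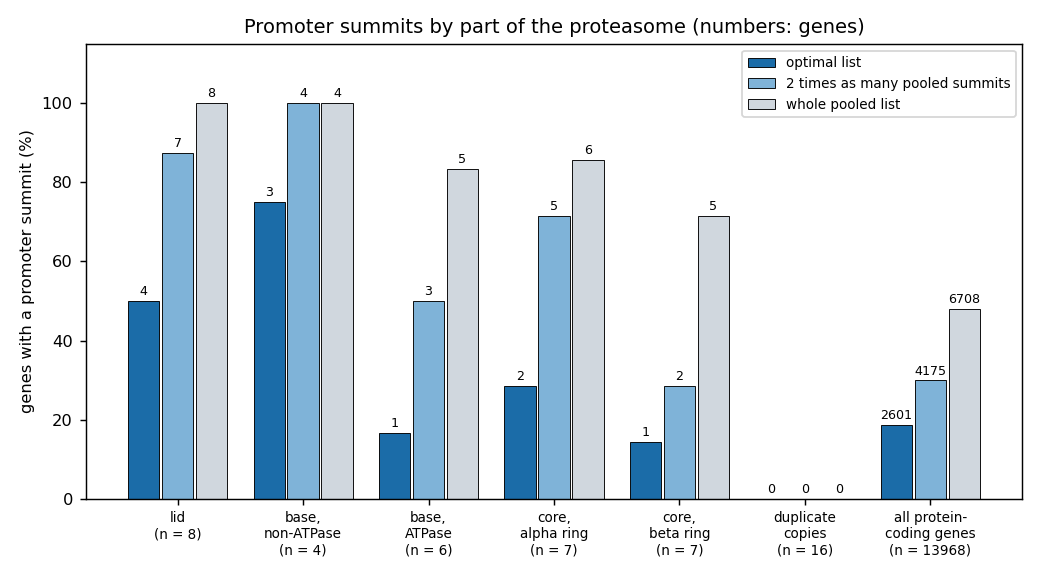
Percent of genes with a summit within 500 bp of a start (y axis) for each section of the proteasome, the duplicate copies and all protein-coding genes (x axis), in the optimal list, in 2 times as many pooled summits and in the whole pooled list. Numbers above the bars count genes. The non-ATPase base and the lid have the highest optimal shares (3 of 4 and 4 of 8), the ATPases and the beta ring the lowest among canonical subunits (1 of 6 and 1 of 7), and the duplicate copies have none.

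The duplicate copies had no promoter summit in the optimal or pooled list, and 4 of 16 had a weak one in a replicate list. Prosbeta2R1 had a signal of 20.23 at rank 12763 in replicate 2, and Rpn13R had 26.66 at rank 7434 there. Prosbeta2R2 had 11.25 at rank 26379 in replicate 3. Rpt3R had 14.13 in replicate 2 and 12.62 in replicate 3, at positions of -417 and 127 bp from its start, so these were not the same site. The 12 copies with no promoter summit in any list were the 4 with the suffix T, Prosalpha3T, Prosalpha4T1, Prosalpha4T2 and Prosalpha6T, together with Prosalpha1R, Prosbeta4R1, Prosbeta4R2, Prosbeta5R1, Prosbeta5R2, Rpn12R, Rpt4R and Rpt6R. Of the 12 canonical genes that have at least 1 copy, 10 had a pooled summit. The distance from the nearest start to the closest optimal summit had a median of 25524.5 bp at the copies (3994 to 69938 bp), 3054 bp at the canonical genes and 7904 bp at all protein-coding genes. Prosalpha1 and Prosalpha1R are near-identical neighbours, with 98.8% identity over the gene and 89.3% over the promoter and a gap of 1734 bp. The authors' handling of reads that map to both is not given in the sources used here, so the lack of summits at this pair is uncertain. Promoter identity of the other 15 copies to their canonical gene was 42.8 to 54%. Levels of transcription were not measured, so whether copies differ from canonical genes in activity in these embryos was not tested.

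**Figure D3:**
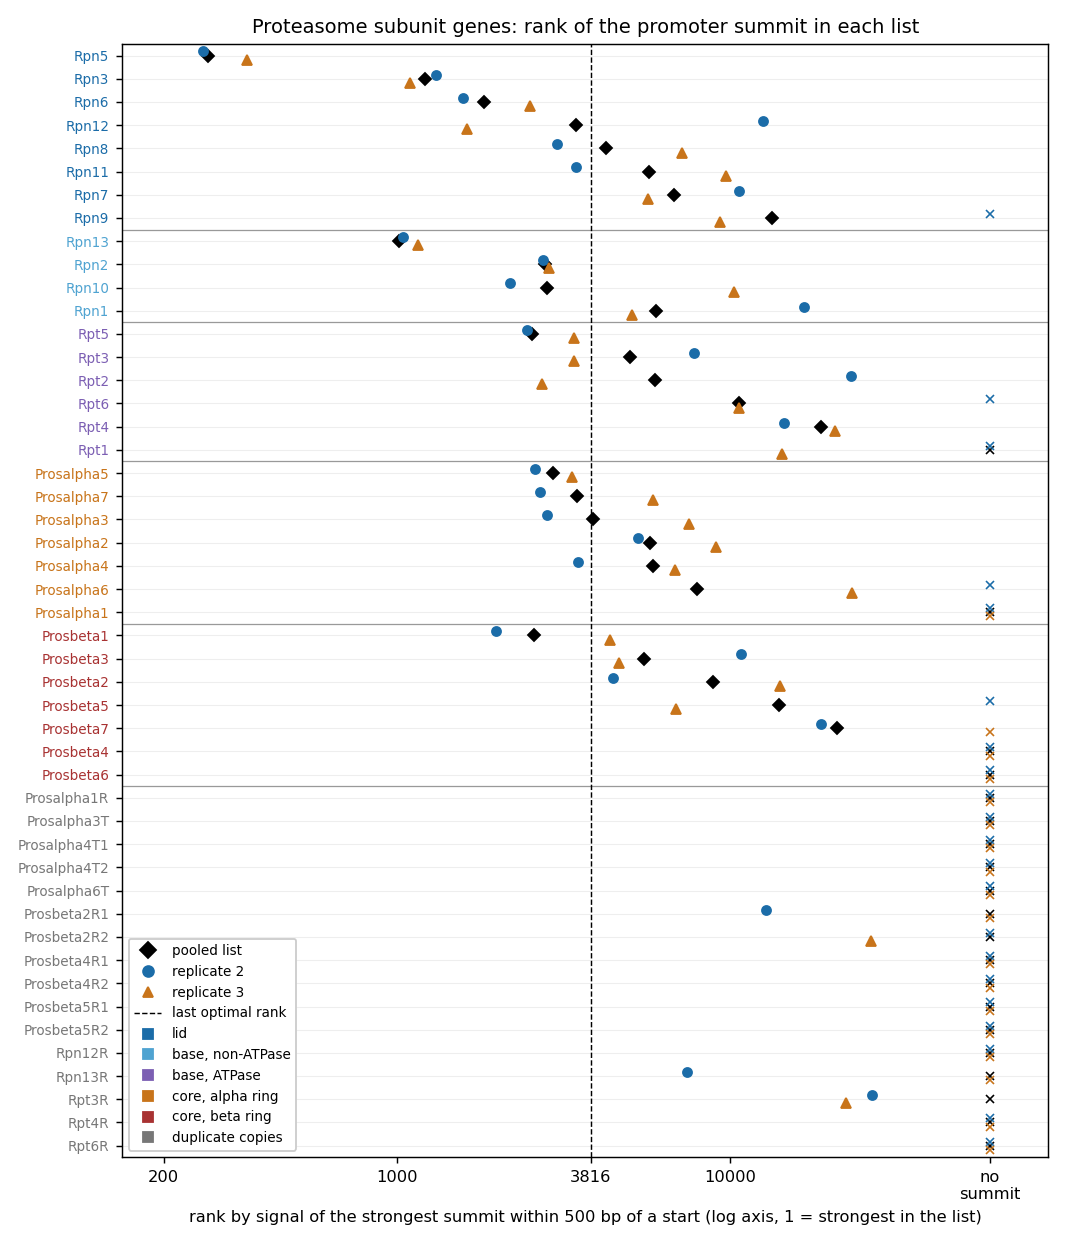
Rank by signal (x axis, log scale, 1 is the strongest) of the strongest promoter summit of each of the 48 genes (rows, grouped by section of the proteasome) in the pooled list (diamonds), replicate 2 (circles) and replicate 3 (triangles). Crosses mark no summit. Left of the dashed line at 3816 are 11 pooled diamonds, all of canonical genes. The ranks of Rpn5, Rpn13 and Rpn2 lie close together, and those of Rpn12, Rpn10 and Rpt2 are spread.

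Each replicate by itself gave the same broad order of canonical genes, all protein-coding genes and copies, but not of the sections of the proteasome. All rows of the replicate 2 list had a promoter summit at 24 of 32 canonical genes (75%), 3 of 16 copies and 45.1% of protein-coding genes. All rows of the replicate 3 list had one at 28 of 32 (87.5%), 2 of 16 and 52.9%. With the 3816 strongest summits of each, the canonical counts were 14 of 32 (43.8%) in replicate 2 beside a background of 18.6%, and 10 of 32 (31.2%) in replicate 3 beside 18.5%. By section, in replicates 2 and 3, the lid had 5 of 8 and 4 of 8 genes and the non-ATPase base 3 of 4 and 2 of 4. The ATPases had 1 of 6 and 3 of 6, the alpha ring 4 of 7 and 1 of 7, and the beta ring 1 of 7 and 0 of 7. The strongest of both replicates shared 7 canonical genes (21.9%) beside 14.5%, and all 7, Rpn5, Rpn13, Rpn3, Rpn6, Rpt5, Rpn2 and Prosalpha5, were in the optimal list. Prosbeta1, Rpn10 and Prosalpha7 were among the strongest of replicate 2 only, and Rpn12 of replicate 3 only. Rpn8, Rpn11, Prosalpha3 and Prosalpha4 in replicate 2, and Rpt2 and Rpt3 in replicate 3, reached the strongest of that replicate without reaching the optimal list. For all 48 genes the shares were 56.2% in replicate 2 and 62.5% in replicate 3 with all rows. With the strongest of each replicate they were 29.2% and 20.8%, and 14.6% in both, again near the background for the last 2.

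Signals at the same gene had a lower correlation between replicates at canonical genes than over all genes. Of the canonical genes, 23 had a promoter summit in both lists, and their log2 signals had a Pearson r of 0.4926 and a Spearman rho of 0.3864. Over the 5115 protein-coding genes with a summit in both, the values were 0.832 and 0.782. These are correlations across genes, which share the libraries and the chromatin input, and the 23 genes span a narrower part of the signal range. In 17 of 23 genes the summits of the replicates lay within 100 bp of each other, with a median of 44 bp. The other 6 were Rpn11, Prosalpha4, Prosbeta2, Prosalpha2, Rpn12 and Rpt2, at 587 to 103 bp, so the values of the replicates there need not be of the same site. The rank was better in replicate 2 for 16 genes and in replicate 3 for 7, and the ranks differed by a ratio over 2 in 12 of them. Counts of reads are not in these lists, so depth is unknown and its part in these differences was not tested.

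Summits of canonical genes lay just upstream of their starts. In the optimal list 10 of 11 were upstream and 1 downstream, with a median of -62 bp, against -123 bp over all protein-coding genes with an optimal promoter peak. Within 100 bp of a start were 7 of 11 (63.6%), against 37.6%. In the pooled list the medians were -74.5 bp and -82 bp, and 15 of 28 (53.6%) were within 100 bp, against 38.7%. No member had an optimal summit inside the gene farther than 500 bp from a start, and 10 of 48 had a pooled one, the strongest of them in Rpt2 with a signal of 55.91.

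**Figure D4:**
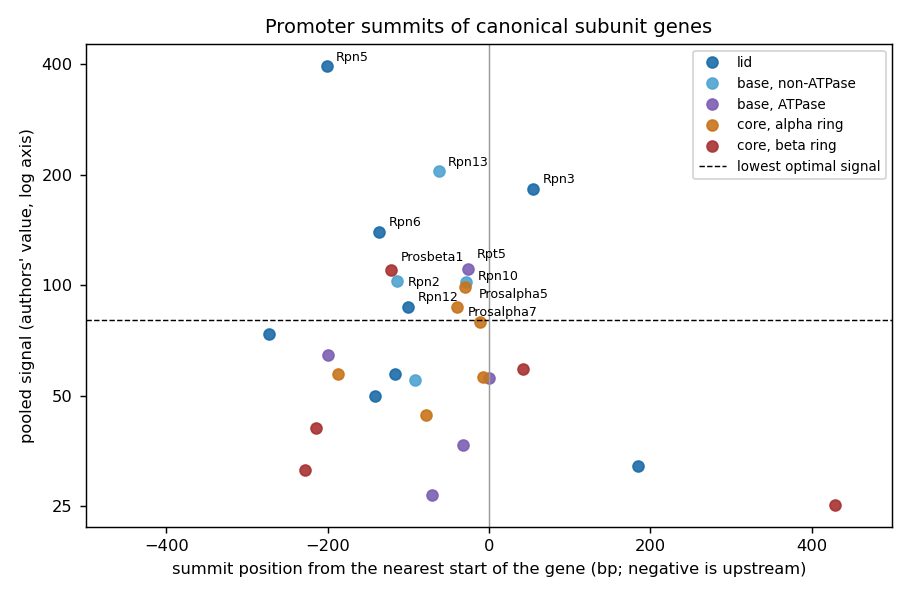
Pooled signal (y axis, log scale) against position of the strongest promoter summit from the nearest start (x axis, bp, negative is upstream) for the 28 canonical genes with a pooled summit, coloured by section of the proteasome. Named points are the 11 genes above the lowest optimal signal of 80.35 (dashed line). Rpn5 stands highest at 395.3 and 201 bp upstream, and Rpn3 at 55 bp is the one optimal summit downstream of a start.

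Many of these promoters are shared with a neighbouring gene, which limits what can be assigned to the proteasome gene. A divergent protein-coding start within 500 bp was present at 18 of 32 canonical genes (56.2%), at 2 of 16 copies (12.5%) and at 26.4% of all protein-coding genes. Over all protein-coding genes, 39% of those with such a neighbour had an optimal promoter peak, against 11.3% of those without. In the canonical genes the shares were 7 of 18 (38.9%) and 4 of 14 (28.6%). The share with a neighbour was thus close to that of the background class, while the share without one was above its background. Divergent neighbours were counted from the outermost start of each gene. Rpn6 was therefore in the class without one, although a start of ave was nearer to its summit. Counting starts of any other gene, 8 of the 11 optimal summits (72.7%) were within 500 bp of one, against 63.7% over all genes with an optimal promoter peak. The proteasome gene had the nearest start in 7 of 11 (63.6%), against 65.7%. In the pooled list 19 of 28 canonical summits (67.9%) were shared with another start, against 48.8%, and the proteasome gene had the nearest start in 17 of 28 (60.7%), against 73.8%. At Rpn5, Rpn6, Rpt5 and Prosbeta1 the neighbour was nearer, and Rpn10, Prosalpha5 and Rpn12 had no other start in reach.

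Matches to the DRE were frequent in the canonical promoters. The DRE, TATCGATA, which reads the same on both strands, was found from 250 bp before to 50 bp after the outermost start in 12 of 32 canonical genes (37.5%), 0 of 16 copies and 9.36% of all protein-coding genes. Those 12 were Prosalpha3, Prosalpha5, Prosalpha6, Prosbeta1, Prosbeta2, Prosbeta6, Rpn3, Rpn7, Rpn9, Rpn12, Rpn13 and Rpt5. An optimal promoter peak was at 6 of the 12 with a DRE (50%) and 5 of the 20 without (25%). Over all protein-coding genes the shares were 30.8% and 17.4%. Within 100 bp of the summit itself the DRE was at 4 of 11 optimal canonical summits (36.4%), against 9.06% of all optimal promoter summits, and at 7 of 28 pooled ones (25%), against 7.84%. In Rpn3 the DRE lay 248 bp from the summit and in Rpn12 112 bp, so a DRE in the promoter was not always at the summit. The median GC content was 35.82% in the windows of the canonical optimal summits and 36.32% in those of all optimal promoter summits. In the pooled windows it was 37.06% and 40.3%, and its part in the pooled DRE counts was not tested. A match is a sequence feature only, and occupancy by Dref was not measured.

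The Ohler 1 core, GGTCACACT on either strand, was in 5 of 32 canonical promoters (15.6%), 0 of 16 copies and 6.04% of all protein-coding genes. These were Prosalpha2, Prosalpha4, Prosbeta3, Rpn1 and Rpn7. None of the 5 had an optimal peak and all 5 had a pooled summit, whereas 27.9% of all protein-coding genes with this core had an optimal peak and 74.7% a pooled summit. The antioxidant response element core, TGACNNNGC on either strand, the sequence bound by the cap'n'collar factor encoded by cnc, was in 5 of 32 canonical promoters (15.6%), 1 of 16 copies (6.25%) and 8.63% of all. Its genes were Prosalpha2, Prosbeta3, Rpn1, Rpn7 and Rpt6, also with 0 optimal peaks and 5 pooled summits, whereas 18.3% of all protein-coding genes with this core had an optimal peak and 51% a pooled summit. At Rpn1 and Prosbeta3 a match shared bases with the Ohler 1 core, so the counts of the 2 motifs are not independent. The Pum element TGTANATA on either strand was in 6 of 32 canonical promoters (18.8%), 4 of 16 copies (25%) and 11% of all. Of those 6, Rpn10 had an optimal peak (16.7%), against 18.2% of all protein-coding genes with the element, and the 2 matches printed above lay 67 and 59 bp from its summit. The other 5 were Prosalpha4, Prosbeta5, Prosbeta6, Rpn1 and Rpn11. Within 100 bp of the summit the element was at 2 of 11 optimal canonical summits (18.2%), against 7.83% of all optimal promoter summits, and at 4 of 28 pooled ones (14.3%), against 6.27%. The E-box, CACGTG, and the GAGA element, GAGAGAG, were each in 0 of 32 canonical promoters, against 4.23% and 5.86% of all. GC content of the promoters had a median of 33.55% in canonical genes, 32.72% in copies and 37.87% in all, and the part of this composition in the counts of AT-rich motifs was not tested.

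Genes that work with the proteasome also had promoter peaks, including those for ubiquitin supply and core assembly. Of 23 genes listed for assembly, activation, shuttling, ubiquitin supply and transcription, 12 had an optimal promoter peak (52.2%). The shares were 34.4% of the canonical subunit genes and 18.6% of all protein-coding genes. A pooled promoter summit was at 22 of the 23 (95.7%), against 87.5% and 48%. Ubi-p63E, a polyubiquitin gene, had a pooled signal of 208.8, and Plap, the fly phospholipase A2 activating protein that works with the segregase TER94, had 206.2. The F-box gene ntc, known for regulation of proteasomes in fly sperm, had 160.4. Uba1, the ubiquitin-activating enzyme, had 136.6, and Pomp, the maturation factor of the core particle, had 128.6. The transcription factor gene cnc had 122.6, Uch-L5, a proteasome-bound deubiquitinase, had 121.2 and TER94 had 115.9. RpS27A, a ubiquitin fusion gene, had 106.3 in the pooled list and 67.79 in replicate 3, with no promoter summit in replicate 2. Ufd1 (104.9), a TER94 cofactor, PI31 (97.72), a proteasome regulator, and the shuttle factor gene rngo (96.32) completed the 12. Of the 12, only Pomp, Uba1, Ubi-p63E and cnc had no other gene start within 500 bp of the summit. The cnc summit lay 308 bp downstream of an internal start. At the others, such as Plap (with CG31922) and RpS27A (with Ip259), the peak cannot be assigned to the pathway gene alone. No optimal peak was at REG, Usp14, Uch, Rad23, Ubqn, Npl4, p47, Ubi-p5E, RpL40, Nedd8 or maf-S, and Rad23 also had no pooled summit. Promoters of the 23 genes held the DRE in 5 cases (21.7%), against 9.36% of all protein-coding genes.

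The COP9 signalosome and eIF3 have PCI and MPN subunits like those of the lid. Of their 25 genes, taken by symbol and not by fold, 8 had an optimal promoter peak (32%), against 34.4% of the canonical proteasome genes. The same set had 11 of 25 (44%) against 65.6% at 2 times the optimal number of summits, and 16 of 25 (64%) against 87.5% in the whole pooled list. This set keeps its paralogue copies, of which CSN1a, eIF3d2, eIF3f2 and eIF3g2 had no pooled summit, while the canonical proteasome count leaves copies out. The strongest of them, alien at 457.3, was above Rpn5. Cytoplasmic ribosomal protein genes had an optimal promoter peak in 54 of 92 cases (58.7%) and a pooled summit in 90.2%. Mitochondrial ribosomal protein genes had 32 of 73 (43.8%) and 76.7%. The canonical proteasome share was thus below both ribosomal sets in the optimal list, and in the pooled list, at 87.5%, it was above the mitochondrial set and below the cytoplasmic one. None of these differences was tested.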

How the data were processed

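Peak lists on dm6 were used, 1 per replicate, 1 pooled and 1 optimal. The signal and the −log10 of the q-value of each peak were deposited by the authors in columns 7 and 9, and peaks were ranked by signal. All 11 optimal peaks of the genes described had a −log10 q-value of 3.889. The peak caller, its settings and the treatment of reads with several matches were not given in the sources used here. Per the labels, chromatin was sheared to 200 to 800 bp, and the lists hold no read counts, so depth cannot be stated.

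Summits were taken 1-based, any closer than 250 bp to a stronger summit was removed, and each gene received its strongest summit within 500 bp of any start (Ensembl release 115, BDGP6.54, 7 arms). Ufd1 was listed under an older symbol and matched by synonym. Motifs and sequences came from the Release 6 genome. Whole gene lists were counted, so no interval or test is given, and p-values over 2 samples of 1 group cannot be had. Members, gene lists and motifs were chosen with earlier results of these data known. Named genes were all with an optimal peak, the 8 without one that had the highest pooled signal, and others by name, with values added after they were seen. Simulated lists with known answers were used to test the removal of near summits. The summit lookup and motif search were written anew for that test, so the code that made the counts was not itself tested. Python 3.11.15, numpy 2.4.6, pandas 2.3.3, scipy 1.17.1 and matplotlib 3.10.9 were used.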

Additional observations from a re-analysis of the deposited data

How the results depend on the processing

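Of 59 alternative values for 8 results, 46 were labelled as near the reported one, 13 as moved and 0 as reversed. The labels were loose, since a fall from 12 to 8 pathway genes still counted as near, and they left out the background. For all 48 genes the main share was 22.9%, above a background of 18.6%. With the nearest start it was 8 of 48, below a background of 20.3%. With the stronger 50% of optimal peaks it was 4 of 48, below 10.7%. The 59 values are not independent, because the counts for all proteasome genes and for canonical genes were nearly the same. The copies had no pooled promoter summit, so settings that only narrowed the window or dropped peaks had to give 0. With the stronger 50% of optimal peaks, counts fell to 4 for all proteasome genes, 4 for canonical genes and 4 for pathway genes, beside a background of 10.7%, and genes among the strongest of both replicates to 3. With only the optimal peaks that matched a top summit in each replicate, the count was 7 for all proteasome genes and 7 for canonical genes. Giving each summit to the nearest start, with no limit of distance, left 7 canonical genes (21.9%, beside a background of 20.3%), without Prosbeta1, Rpn5, Rpn6 and Rpt5. It also gave 1 copy, Prosbeta5R1, a summit 11762 bp away. All rows of both replicate lists gave 24 genes in place of 7. The pooled list at 2 times the optimal number, an alternative chosen after seeing the data, gave 21 genes, all canonical (21). The median position was -51 bp from the outermost start and -71.5 to -65 bp with 1 replicate left out. Counts with 1 replicate left out were 10 to 14 for canonical genes, 0 for copies and 9 to 11 for pathway genes. No paired analysis was possible because there was only 1 group. Peaks cannot be assigned between divergent genes closer than the 200 to 800 bp fragments, and without read counts or control lists weak summits cannot be told apart from background.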
